A study of Mus musculus with 8 samples.

Results

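The genes described here encode the digestive machinery of the lysosome: its soluble hydrolases, proteins of its limiting membrane, subunits of the vacuolar proton pump that acidifies it, and the transcription factors Tfeb and Mitf. The list names 39 mouse genes. A probe set counted for a gene only where the platform annotation assigned it to that gene alone, under its current symbol or a synonym, and 37 of the 39 genes had such a probe set. The levels of Cd63 and Atp6v0c were not analysed here. Of the 34945 probe sets with a single gene, 92 belonged to the list and 80 of them passed the filter on dim values. All 37 genes were tested among 12362 genes, each by its brightest tested probe set, and 36 of the 37 lay above the filter on all 8 arrays. Gla, the exception, passed only through the transgenic arrays, so its difference from wild type was in part required by the filter.

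The study measured RNA of whole dissected ankle joints of mice at 5 months of age, with no drug or other agent given in the labels, on 8 single-colour Affymetrix arrays. Human TNF drives chronic arthritis when expressed as a transgene in mice, and sphingosine kinase 1 (Sphk1) makes the lipid mediator sphingosine 1-phosphate. The series asks about the part of Sphk1 in inflammation induced by human TNF. The groups were 3 arrays of joints that carried the human TNF transgene and were labelled null for Sphk1, 3 arrays of joints with the transgene and normal Sphk1 (hTNF), and 2 arrays of wild-type joints with neither change. The sources used here do not give the strain, the promoter of the transgene, the kind of null allele or the sex of the mice. Nothing in the labels says whether the mice of a group came from separate litters, so the p-values cover the spread among the arrays at hand, part of which may be technical.

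The lysosome breaks down protein, lipid and carbohydrate with hydrolases that work at acid pH. The vacuolar ATPase provides that acid: its cytosolic V1 sector hydrolyses ATP and turns a rotor in its membrane-bound V0 sector, which carries protons across the membrane. Macrophages hold many lysosomes, and osteoclasts place the same pump, with cathepsin K, at the plasma membrane to dissolve bone mineral and digest its matrix. Tfeb, Tfe3, Tfec and Mitf form a family of basic helix-loop-helix leucine zipper factors that bind E-boxes, and Tfeb is known for driving lysosomal genes through an E-box variant called the CLEAR element.

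The E-box core and longer forms of it were counted in the promoters of these genes, with no test. RefSeq promoter windows on GRCm38.p6, each from 250 bases before to 50 bases after the annotated gene start, were found for 33 of the 39 genes. These include Cd63 and Atp6v0c, which were not tested on the arrays and had no CACGTG in their windows. The E-box CACGTG, searched on both strands, was in the windows of 12 of the 33 genes (36.4%), against 11.6% of the 9946 tested genes with a window. The longer palindrome TCACGTGA, which contains CACGTG, was in 8 of 33 (24.2%), against 2.16% of the tested genes. The consensus of the CLEAR element, which has the same letters between a G and a C, was in 0 of 33 windows, against 0.744% of the tested genes. The 8 genes with TCACGTGA are shown because they include genes that rose with the transgene and genes that were not called. Capitals mark each CACGTG, and the flanking letters of each TCACGTGA, in the strand of the gene. A further CACGTG of Ctsd, at base -245 from the gene start, lies outside the stretch shown.
Ctsa, chr2:164833741-164833797, plus strand: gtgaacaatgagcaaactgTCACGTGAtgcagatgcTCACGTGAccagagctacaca
Gla, chrX:134601174-134601252, minus strand: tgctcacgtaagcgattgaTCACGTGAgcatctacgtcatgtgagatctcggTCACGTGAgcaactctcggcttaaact
Ctsd, chr7:142387900-142387945, minus strand: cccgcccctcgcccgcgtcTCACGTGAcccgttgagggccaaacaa
Clcn7, chr17:25133356-25133415, plus strand: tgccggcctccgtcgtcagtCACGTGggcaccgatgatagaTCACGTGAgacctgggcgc
Mcoln1, chr8:3500428-3500499, plus strand: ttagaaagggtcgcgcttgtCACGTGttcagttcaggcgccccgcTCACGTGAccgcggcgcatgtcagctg
Atp6v0d1, chr8:105566042-105566087, minus strand: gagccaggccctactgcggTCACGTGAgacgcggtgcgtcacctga
Atp6v0e, chr17:26676379-26676420, plus strand: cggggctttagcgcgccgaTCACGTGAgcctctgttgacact
Atp6v1a, chr16:44139365-44139410, minus strand: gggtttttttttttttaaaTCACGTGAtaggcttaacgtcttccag

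Counted from the gene start, the first CACGTG began at base -12 in Ctsa, at -3 in Atp6v0d1, at -131 in Atp6v1a and at -227 in Gla. The AP-1 motif TGANTCA was in 3 of the 33 windows (9.09%), against 6.75% of tested genes with a window, and the PU.1 motif GAGGAAGT was also in 3 (9.09%), against 3.76%. A match describes these letters only and was not tested as a binding site.

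Before the members, the arrays themselves were examined. Array medians lay between 6.84 and 6.89 log2, so total RNA cannot be compared between groups. Sphk1 was not lower in the arrays labelled null. Its bright probe set had values of 10.22, 9.94 and 10 log2 in labelled-null joints, against 8.63, 8.65 and 8.28 in hTNF joints and 7.25 and 7.16 in wild-type joints. All 3 labelled-null arrays were above all hTNF arrays (difference 1.53 ± 0.13 log2, limma standard error, Benjamini-Hochberg adjusted p = 0.0164). Leaving out any 1 array other than labelled-null replicate 2 kept the size of that difference (1.41 to 1.60 log2) and ended its call (adjusted p of 0.0572 to 0.19). A second, dim Sphk1 probe set, between 6.12 and 6.74 log2 over the 8 arrays, was not called by the same test (-0.11 log2, adjusted p = 0.904). The sources used here do not say where either probe set lies relative to the altered part of the gene, so each direction drawn from that group goes by its label alone. Although each label speaks of 1 mouse, on 3 arrays, labelled-null replicate 1, hTNF replicate 1 and wild-type replicate 2, both Xist and Y-linked Eif2s3y gave signal, Xist at 11.19, 13.05 and 13.09 log2 and Eif2s3y at 9.14, 6.6 and 6.91 log2. These arrays may hold RNA of more than 1 mouse, which was not tested. Without them the wild-type group is replicate 1 alone, with Xist at 7.45 and Eif2s3y at 8.86 log2. Labelled-null replicates 2 and 3 read 12.89 and 13.1 for Xist and 3.46 for Eif2s3y on each. The labelled-null and wild-type arrays left therefore also differ in sex-linked signal. For hTNF, replicate 2 read 7.29 for Xist and 8.75 for Eif2s3y, and replicate 3 read 13.16 and 3.81. Median differences of hTNF from wild-type joints are also given without the 3 arrays, as descriptions.

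The transgene went with higher levels across most of the list. In hTNF joints against wild-type joints, 28 of the 37 tested genes rose, 0 fell and 9 were not called at an adjusted p under 0.05 (limma over all probe sets, Benjamini-Hochberg). Without Gla, 27 of 36 rose. Of all tested genes, 16.5% rose and 19.6% fell. The median difference of the 37 genes was 0.59 log2, within a range of -0.40 to 1.64, beside a median of -0.02 over all tested genes. Of all 24115 tested probe sets, 33% were called in this comparison, 0.00829% between the transgenic groups and 39% between labelled-null and wild-type joints. All 3 hTNF arrays lay above both wild-type arrays for 30 of the 37 genes, against 28.7% of all tested genes. They lay below both for 2 of the 37, against 35.1%. Without the 3 arrays that gave both Xist and Y-linked signal, which leaves 1 wild-type array, the median difference of the members was 0.76 log2. Over all tested genes it was -0.02. By role the medians were then 0.99 log2 for cathepsins, 0.99 for other hydrolases, 0.45 for membrane proteins and 0.68 for pump subunits. In labelled-null joints against the same wild-type joints, 31 members rose and 1 fell, against 19.1% and 23.8% of all tested genes. Their median was 0.68 log2. Without the 3 arrays this comparison sets labelled-null replicates 2 and 3 against wild-type replicate 1, which differs from them in sex-linked signal, so no counts are given. The comparisons with wild type share their wild-type arrays.

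**Figure D1:**
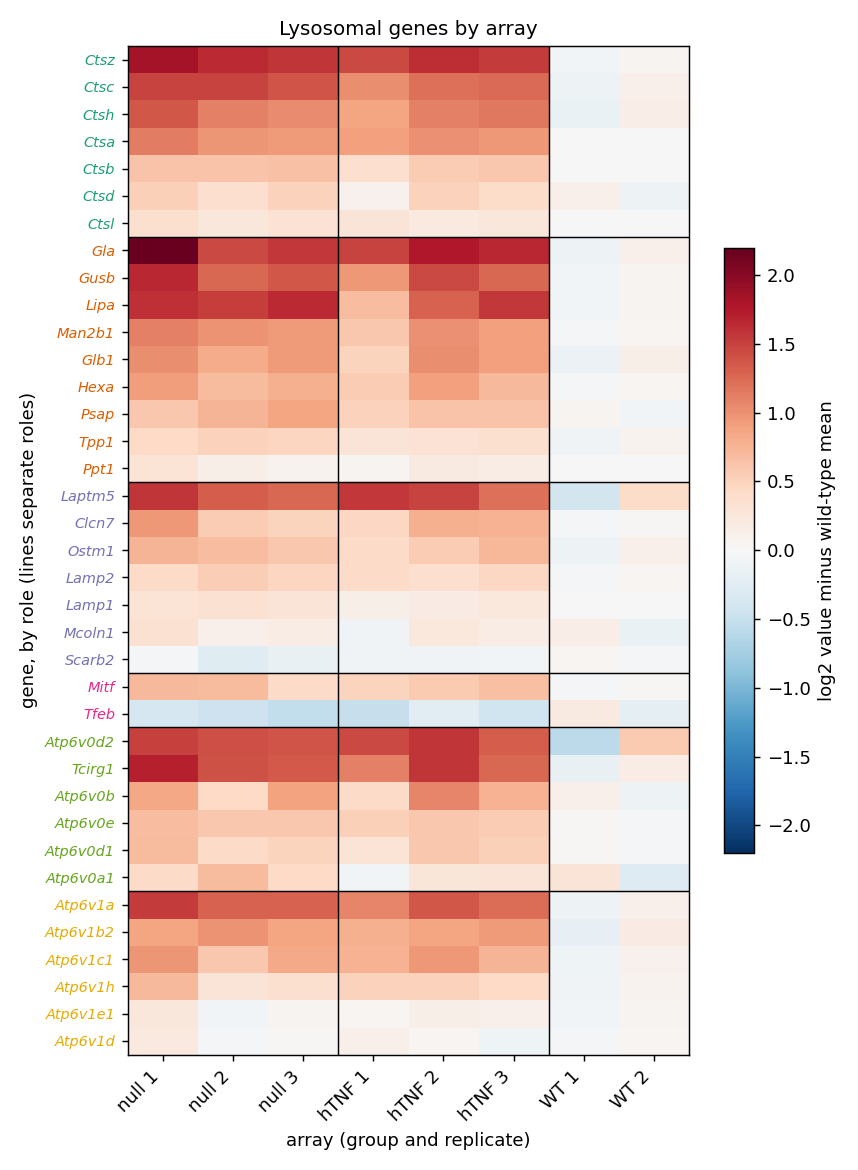
Heat map of the 37 tested genes (rows, coloured and ordered by role) on the 8 arrays (columns: labelled-null, hTNF and wild type), as log2 value minus the mean of the 2 wild-type arrays. Red is above and blue below that mean, and the strongest rows among the transgenic arrays are Ctsz, Gla, Lipa, Laptm5, Atp6v0d2 and Tcirg1, while Tfeb is blue on all 6.

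Markers of several cell types differed between the same groups. Of 11 tested macrophage markers, 9 rose in hTNF against wild-type joints, with a median of 1.80 log2. The mean level of the macrophage list on an array was 10.88 to 11.16 log2 in labelled-null joints and 10.72 to 11 in hTNF joints, against 9.31 and 9.32 in wild-type joints. Its defining markers Adgre1 and Csf1r rose by 2.12 ± 0.14 and 1.06 ± 0.11 log2. Of 8 osteoclast markers 4 rose, of which Ocstamp and Dcstamp lay above the filter on no wild-type array, so their calls were in part required by the filter, and 2 of the other 6 rose. The list's mean level was 9.59 to 9.85 log2 in labelled-null and 9.42 to 9.78 in hTNF joints, against 8.17 (replicate 1) and 9.10 (replicate 2) in wild-type joints. Markers of other joint tissues went the other way: 9 of 10 of skeletal muscle, 6 of 6 of adipocytes and 6 of 8 of cartilage fell. Skin markers, none called of 13, spread widely among arrays of 1 group, from 6.84 to 10.25 log2 in labelled-null joints and from 6.71 to 11.64 in hTNF joints, against 7.41 and 8.39 in wild-type joints. Neutrophil markers, none called of 9, had mean levels of 7.90 (replicate 1) and 11.35 log2 (replicate 2) on the wild-type arrays. Without the 3 arrays that gave both Xist and Y-linked signal, wild-type replicate 1 alone is left, with the lower neutrophil and osteoclast levels. Median differences of hTNF from wild-type joints were then 1.91 log2 for macrophage, 1.48 for osteoclast and 2.10 for neutrophil markers. With all arrays they were 1.80, 1.07 and 0.68 log2. None of 6 melanocyte markers passed the filter on dim values, and their highest value was 6.76 log2. The part of any of these cells in the lysosomal differences was not tested, and in whole joints fewer cells of a type and less RNA per cell cannot be told apart.

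**Figure D2:**
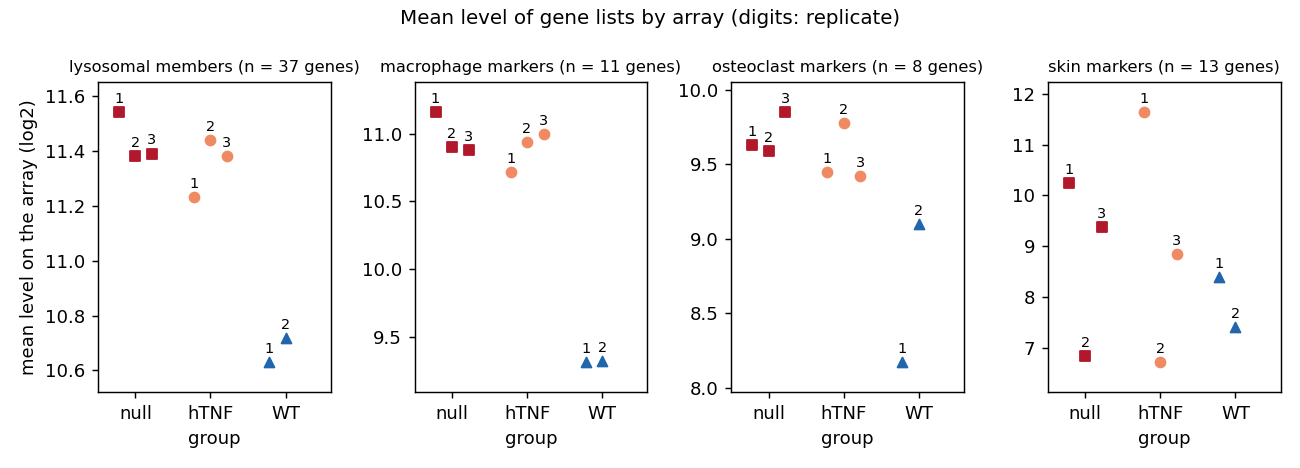
Mean log2 level on each array (vertical axes, a separate scale in each panel) of the 37 lysosomal genes and of the tested macrophage, osteoclast and skin markers, by group (null for labelled null, hTNF, WT for wild type), with digits for replicates. Lysosomal and macrophage levels lie apart from wild type on all 6 transgenic arrays, the osteoclast level of wild-type replicate 2 is close to the transgenic arrays, and the skin level varies most within groups.

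Over the whole list, the mean level was 11.54, 11.38 and 11.39 log2 in labelled-null joints and 11.23, 11.44 and 11.38 in hTNF joints, against 10.63 and 10.72 in wild-type joints. The transgenic groups overlapped and both lay above wild type. The transgenic array with the lowest mean, hTNF replicate 1, also had the lowest macrophage level among them (10.72) and the highest skin level (11.64). The array with the highest mean, labelled-null replicate 1, had the highest macrophage level (11.16) and also the highest skin level of its group (10.25). With the skin level of each array as a covariate, 29 members rose in hTNF against wild-type joints, against 28 without it. The part of skin or macrophage content in the mean levels was not tested.

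Cathepsins, the proteases of the lysosome, rose as a group: 6 of 7 were called higher in hTNF than in wild-type joints, with a median of 0.95 log2. Ctsz, a carboxypeptidase abundant in myeloid cells, read 13.03, 12.84 and 12.78 log2 in labelled-null joints and 12.66, 12.83 and 12.74 in hTNF joints, against 11.15 and 11.26 in wild-type joints. Both wild-type arrays lay far below all 6 transgenic arrays, which overlapped each other. The hTNF difference was 1.54 ± 0.10 log2, a 2.90-fold level (adjusted p = 1.45e-05). Ctsc, the dipeptidyl peptidase that activates serine proteases of immune cells, read 12.82, 12.81 and 12.71 log2 in labelled-null joints and 12.36, 12.55 and 12.58 in hTNF joints, against 11.22 and 11.44 in wild-type joints. Here all 3 groups stood apart, with the labelled-null arrays highest. Ctsc rose by 1.17 ± 0.10 log2 in hTNF against wild-type joints, 2.24-fold (adjusted p = 6.15e-05). Ctsh, an aminopeptidase, read 11.94, 11.68 and 11.60 log2 in labelled-null joints and 11.44, 11.67 and 11.72 in hTNF joints, against 10.42 and 10.71 in wild-type joints. The transgenic groups overlapped, and both were above wild type. Ctsh rose by 1.04 ± 0.14 log2, 2.06-fold (adjusted p = 0.000544).

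The other cathepsins had smaller differences. Ctsa, which protects beta-galactosidase and neuraminidase, rose by 0.95 ± 0.09 log2, and Ctsb, a cysteine protease of most cells, by 0.51 ± 0.07. Ctsl rose by 0.25 ± 0.07 log2 (adjusted p = 0.0174), but with the mean of its probe sets in place of the brightest the difference was 0.08 (adjusted p = 0.532), and without wild-type replicate 1, wild-type replicate 2 or hTNF replicate 3 it was not called (adjusted p of 0.0585 to 0.0847). Ctsd, the main aspartic protease of the lysosome, read 13.12, 12.96 and 13.09 log2 in labelled-null joints and 12.69, 13.09 and 12.99 in hTNF joints, against 12.70 and 12.48 in wild-type joints. Among the transgenic arrays, hTNF replicate 1 alone lay between the wild-type arrays. Ctsd was not called in hTNF joints (0.33 ± 0.12 log2, adjusted p = 0.065) and was called without that array (0.45 log2, adjusted p = 0.00911). In labelled-null against wild-type joints all 7 cathepsins rose, with a median of 1.01 log2, though Ctsd was not called there without wild-type replicate 2 (0.36 log2, adjusted p = 0.112).

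Of the hydrolases of sugars, lipids and other substrates, 8 of 9 rose in hTNF against wild-type joints, with a median of 0.81 log2. Gla, the alpha-galactosidase whose loss causes Fabry disease, read 8.76, 8.04 and 8.14 log2 in labelled-null joints and 8.08, 8.35 and 8.24 in hTNF joints, against 6.48 and 6.69 in wild-type joints. Both wild-type values lay under the filter of 6.87, and the transgenic groups overlapped. Its hTNF difference of 1.64 ± 0.21 log2 is a description, since the filter in part required it. With the filter left out the adjusted p was 0.000574, and without Gla 7 of 8 hydrolases of this group rose. Gusb, the beta-glucuronidase that acts on glycosaminoglycans, read 11.58, 11.18 and 11.29 log2 in labelled-null joints and 10.88, 11.38 and 11.19 in hTNF joints, against 9.87 and 9.98 in wild-type joints. All 6 transgenic arrays were above both wild-type arrays. Gusb rose by 1.23 ± 0.16 log2, 2.34-fold (adjusted p = 0.000535). Lipa, the acid lipase that frees cholesterol from its esters, read 11.45, 11.35 and 11.48 log2 in labelled-null joints and 10.52, 11.14 and 11.39 in hTNF joints, against 9.78 and 9.89 in wild-type joints. The hTNF arrays spread over most of a log2 unit, with replicate 1 lowest, yet stayed above wild type. Lipa rose by 1.18 ± 0.21 log2, 2.27-fold (adjusted p = 0.00239).

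The other hydrolases rose less. Man2b1, an alpha-mannosidase, rose by 0.83 ± 0.12 log2, Glb1, a beta-galactosidase, by 0.81 ± 0.17, Hexa, the alpha chain of beta-hexosaminidase, by 0.73 ± 0.11, and Psap, the precursor of saposins that present sphingolipids to hydrolases, by 0.59 ± 0.09. Tpp1, a tripeptidyl peptidase, rose by 0.32 ± 0.08 log2 (adjusted p = 0.0163), but its second probe set was not called (0.21 ± 0.12, adjusted p = 0.212). Without wild-type replicate 1 neither Tpp1 (adjusted p = 0.137) nor Glb1 (adjusted p = 0.0575) was called, and Tpp1 was not called without hTNF replicate 2 (0.0503) or 3 (0.0612). Ppt1, which removes palmitate from proteins, was the one hydrolase of this group not called by its brightest probe set, at 10.34, 10.18 and 10.13 log2 in labelled-null joints and 10.11, 10.24 and 10.21 in hTNF joints, against 10.06 and 10.03 in wild-type joints (hTNF difference 0.14 ± 0.10, adjusted p = 0.342). Its transgenic arrays were all above wild type, by little. A second Ppt1 probe set was called higher in hTNF (0.35 ± 0.12 log2, adjusted p = 0.0421) and in labelled-null joints against wild type (0.56 ± 0.12, adjusted p = 0.00406). Over all 16 hydrolases, cathepsins included, 14 rose in hTNF joints, 13 of 15 without Gla, and the median was 0.82 log2.

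Membrane proteins were more mixed: 4 of 7 rose in hTNF against wild-type joints, with a median of 0.42 log2. Laptm5, a membrane protein of lysosomes in blood-derived cells, read 12.57, 12.33 and 12.26 log2 in labelled-null joints and 12.54, 12.48 and 12.21 in hTNF joints, against 10.59 and 11.39 in wild-type joints. The wild-type arrays were far apart, replicate 1 lower, but both under the transgenic arrays. Laptm5 rose by 1.42 ± 0.21 log2, 2.68-fold (adjusted p = 0.000957), and its next brightest probe sets differed by 1.60 and 1.83 log2. Clcn7, the chloride and proton exchanger of lysosomes and the osteoclast border, read 10.05, 9.64 and 9.58 log2 in labelled-null joints and 9.54, 9.87 and 9.86 in hTNF joints, against 9.07 and 9.11 in wild-type joints. Ostm1, its partner subunit, read 10.92, 10.84 and 10.76 log2 in labelled-null joints and 10.59, 10.73 and 10.90 in hTNF joints, against 10.05 and 10.28 in wild-type joints. For both partners the transgenic groups overlapped above wild type. Clcn7 rose by 0.67 ± 0.16 log2 (adjusted p = 0.0121) and Ostm1 by 0.58 ± 0.12 (adjusted p = 0.00593). Without wild-type replicate 1 neither was called (adjusted p = 0.0759 for Clcn7 and 0.0655 for Ostm1), and without wild-type replicate 2 Clcn7 was not called (adjusted p = 0.0523).

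The structural glycoproteins of the lysosomal membrane had smaller differences. Lamp2, which also takes part in autophagy, rose by 0.42 ± 0.07 log2 (adjusted p = 0.00176). Lamp1 read 13.55, 13.59 and 13.53 log2 in labelled-null joints and 13.38, 13.43 and 13.48 in hTNF joints, against 13.27 and 13.24 in wild-type joints. The 3 groups did not overlap, with wild type lowest, though all 8 values lay close together. Its hTNF difference of 0.18 ± 0.06 log2 was not called (adjusted p = 0.0545), and its labelled-null difference from wild type was (0.30 ± 0.06, adjusted p = 0.00383). Mcoln1, a calcium channel of the lysosome, differed by 0.11 ± 0.14 log2 (adjusted p = 0.611), and Scarb2, the receptor that carries glucocerebrosidase, by -0.07 ± 0.09 (adjusted p = 0.621).

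The pump rose in part: 9 of its 12 tested subunits were higher in hTNF than in wild-type joints, 5 of 6 in V0 and 4 of 6 in V1, with a median of 0.65 log2 in each sector. In V0, Atp6v0d2, a d subunit known from osteoclasts and macrophages, read 10.15, 10.06 and 10.03 log2 in labelled-null joints and 10.10, 10.21 and 9.98 in hTNF joints, against 8.07 and 9.21 in wild-type joints. The 6 transgenic arrays were tightly grouped and the 2 wild-type arrays were not, the lower being replicate 1, which also had the lower osteoclast level (8.17 against 9.10). Atp6v0d2 rose by 1.46 ± 0.26 log2, 2.74-fold (adjusted p = 0.00267), by 0.89 log2 without wild-type replicate 1 (adjusted p = 0.00461) and by 2.03 without replicate 2 (adjusted p = 0.000125). Tcirg1, the a3 subunit whose loss causes osteopetrosis, read 10.77, 10.46 and 10.41 log2 in labelled-null joints and 10.18, 10.63 and 10.32 in hTNF joints, against 8.90 and 9.23 in wild-type joints. The transgenic groups overlapped well above wild type. Tcirg1 rose by 1.31 ± 0.17 log2, 2.48-fold (adjusted p = 0.000489).

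The widely expressed paralogs of these subunits differed less from wild type. Atp6v0d1, the d subunit of most cells, read 11.52, 11.24 and 11.32 log2 in labelled-null joints and 11.13, 11.41 and 11.35 in hTNF joints, against 10.85 and 10.80 in wild-type joints. All transgenic arrays were above wild type, by a smaller step than for Atp6v0d2. Atp6v0d1 rose by 0.47 ± 0.12 log2 (adjusted p = 0.0132). It was not called without wild-type replicate 1 (adjusted p = 0.060) or without replicate 2 (adjusted p = 0.0716). Atp6v0a1, the a1 subunit, read 9.99, 10.26 and 10.01 log2 in labelled-null joints and 9.50, 9.83 and 9.84 in hTNF joints, against 9.85 and 9.28 in wild-type joints. Its hTNF arrays lay among the wild-type arrays, while the labelled-null arrays were above both groups. Atp6v0a1 differed by 0.16 ± 0.18 log2 in hTNF joints (adjusted p = 0.568) and rose by 0.52 ± 0.18 in labelled-null joints against wild type (adjusted p = 0.0486). It was not called in most of the alternatives tried, and without wild-type replicate 2 the labelled-null difference was 0.24 log2 (adjusted p = 0.393), against 0.81 (adjusted p = 0.0144) without wild-type replicate 1. A dimmer Atp6v0a1 probe set, above the filter on 1 wild-type array, was called in the same comparison (0.79 ± 0.21 log2, adjusted p = 0.015). The differences between paralogs in their response were not tested.

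Atp6v0b, the c'' subunit of the rotor, read 11.70, 11.29 and 11.74 log2 in labelled-null joints and 11.28, 11.93 and 11.62 in hTNF joints, against 10.97 and 10.74 in wild-type joints. It rose by 0.76 ± 0.20 log2 (adjusted p = 0.0159), with wide spread among transgenic arrays, and was not called without wild-type replicate 2 (adjusted p = 0.105). Atp6v0e, a small V0 subunit, rose by 0.55 ± 0.08 log2 (adjusted p = 0.000705).

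In V1, Atp6v1a, the catalytic A subunit, read 11.48, 11.24 and 11.25 log2 in labelled-null joints and 11.03, 11.32 and 11.18 in hTNF joints, against 9.84 and 10.06 in wild-type joints. Every transgenic array was above both wild-type arrays by a wide step. Atp6v1a rose by 1.23 ± 0.13 log2, 2.34-fold (adjusted p = 0.000156). Atp6v1b2, the B subunit of its hexamer, read 11.85, 11.98 and 11.86 log2 in labelled-null joints and 11.77, 11.85 and 11.92 in hTNF joints, against 10.80 and 11.17 in wild-type joints. Atp6v1c1, a peripheral stalk subunit, read 11.12, 10.75 and 10.99 log2 in labelled-null joints and 10.92, 11.10 and 10.90 in hTNF joints, against 10.06 and 10.24 in wild-type joints. For both, transgenic arrays overlapped each other and not wild type. Atp6v1b2 rose by 0.86 ± 0.12 log2 (adjusted p = 0.000594) and Atp6v1c1 by 0.82 ± 0.13 (adjusted p = 0.0013). Atp6v1h, the regulatory H subunit, rose by 0.48 ± 0.14 log2 (adjusted p = 0.0247), a call lost without either wild-type array (adjusted p = 0.167 without replicate 1 and 0.0538 without replicate 2) and without any 1 of the hTNF arrays. Of the remaining V1 subunits, Atp6v1d of the rotor shaft differed by 0.02 ± 0.11 log2 (adjusted p = 0.902) and Atp6v1e1 of the peripheral stalk by 0.10 ± 0.10 (adjusted p = 0.539). The hTNF and wild-type arrays overlapped for each.

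**Figure D3:**
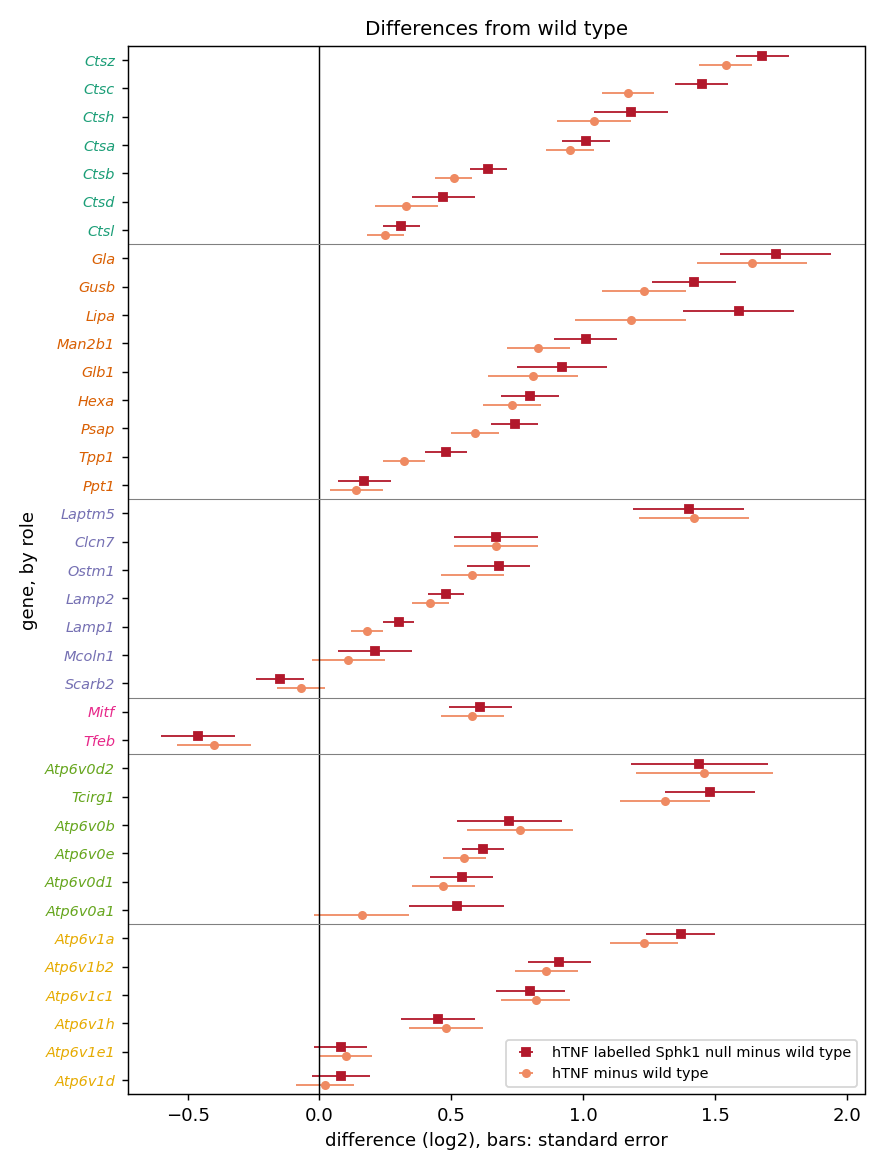
Difference from wild type in log2 units (horizontal axis, bars: limma standard error) of the 37 genes, grouped by role, for labelled-null joints (squares) and hTNF joints (circles), which share the wild-type arrays. The 2 groups lie close together in most rows, Ctsz, Laptm5 and Atp6v0d2 are among the largest differences, and Tfeb and Scarb2 lie left of 0.

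The transcription factors of the list did not move together. Mitf, known for osteoclast and melanocyte development, read 10.58, 10.56 and 10.29 log2 in labelled-null joints and 10.36, 10.44 and 10.54 in hTNF joints, against 9.84 and 9.90 in wild-type joints. Transgenic arrays overlapped above wild type, and Mitf rose by 0.58 ± 0.12 log2 (adjusted p = 0.00484). Tfeb read 9.55, 9.47 and 9.38 log2 in labelled-null joints and 9.42, 9.67 and 9.48 in hTNF joints, against 10.13 and 9.72 in wild-type joints. Every transgenic value was under both wild-type values, but hTNF replicate 2 only just under wild-type replicate 2. Tfeb was not called in hTNF joints (-0.40 ± 0.14 log2, adjusted p = 0.0575) and fell in labelled-null joints against wild type (-0.46 ± 0.14, adjusted p = 0.0299). The labelled-null call was lost without wild-type replicate 1 (-0.25 log2, adjusted p = 0.276) and without labelled-null replicate 2 (adjusted p = 0.056) or 3 (0.0946), and the hTNF difference was called without wild-type replicate 2 (-0.61 log2, adjusted p = 0.0211). These are levels of RNA, and the activity of Tfeb is set largely by where its protein lies in the cell, which the arrays do not measure.

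Of 10 related factors, 4 rose and 1 fell in hTNF against wild-type joints, with a median of 0.25 log2. Tfec, the family member known from macrophages and osteoclasts, read 9.25, 9.09 and 9.0 log2 in labelled-null joints and 8.67, 8.87 and 9.25 in hTNF joints, against 6.46 and 7.40 in wild-type joints. All transgenic arrays were more than a log2 unit above wild type, and Tfec rose by 2.00 ± 0.26 log2 (adjusted p = 0.000495). The E-box factors Max and Myc rose by 1.15 ± 0.22 and 0.76 ± 0.12 log2, and Foxo1, a forkhead factor that promotes autophagy genes, fell by 0.76 on the log2 scale. Tfe3, named here as a family member after its values were seen, rose by 0.62 ± 0.15 log2 (adjusted p = 0.0104).

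**Figure D4:**
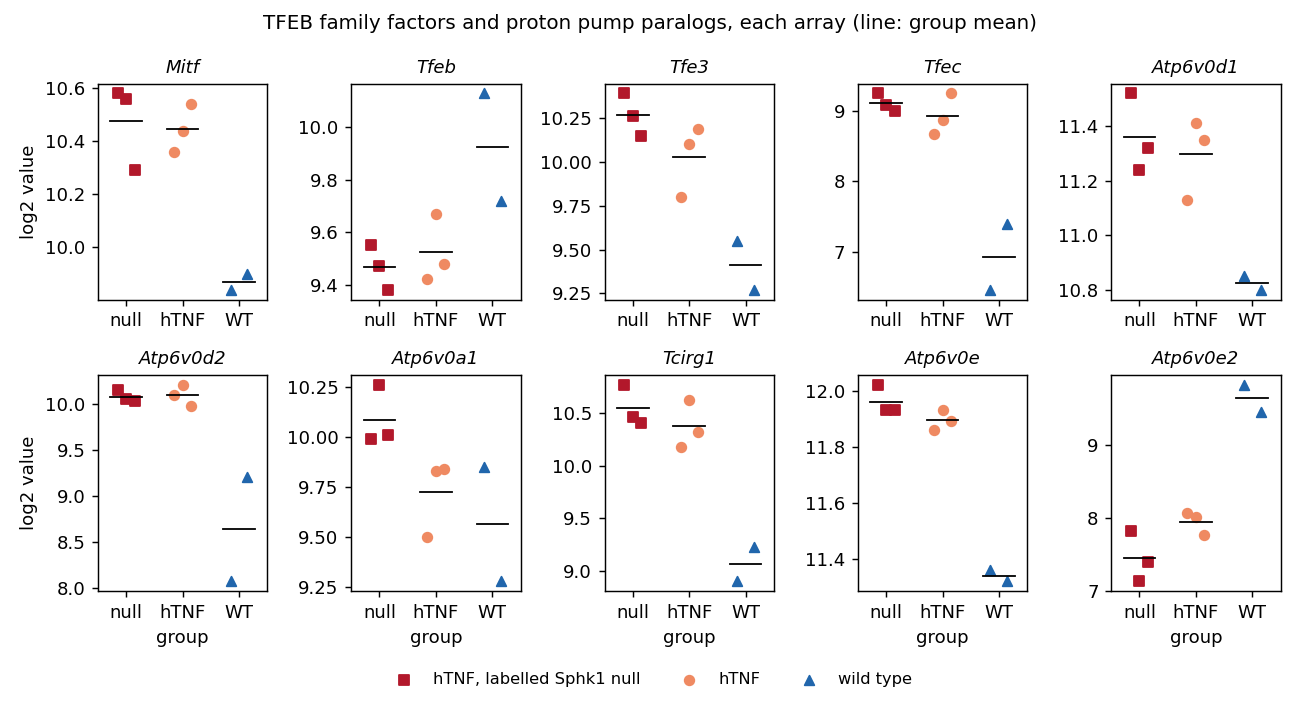
Log2 values on each array (points; line: group mean; a separate scale in each panel) of the Tfeb family and of paralogous V0 subunits in labelled-null joints (null), hTNF joints and wild-type joints (WT). Mitf, Tfe3 and Tfec are higher and Tfeb lower on transgenic than on wild-type arrays, and Atp6v0e2 runs opposite to Atp6v0e.

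Members with and without the E-box shown above had similar medians. The 8 with TCACGTGA had a median hTNF difference of 0.61 log2 and 6 of them rose (5 of 7 without Gla), while Ctsd and Mcoln1 were not called. The 12 with CACGTG had a median of 0.61 (9 rose), and the 19 with a window but without CACGTG had a median of 0.58 (13 rose). No test was made of that difference.

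Lysosomal genes outside the list are given by their counts, with no test between lists. Of 31 further hydrolases, 26 were tested, 17 rose and 0 fell in hTNF against wild-type joints, with a median of 0.57 log2. Cathepsin S, Ctss, which processes antigen-presenting molecules in macrophages, read 13.92, 13.95 and 13.86 log2 in labelled-null joints and 13.78, 13.72 and 13.83 in hTNF joints, against 11.60 and 12.13 in wild-type joints. It rose by 1.91 ± 0.13 log2 (adjusted p = 2.07e-05), and transgenic arrays were all far above wild type. Ctsk, the collagen-degrading cathepsin of osteoclasts, rose by 1.64 ± 0.23 log2, with wild-type arrays apart at 11.28 and 12.29. Manba, a beta-mannosidase, and Acp2, an acid phosphatase, each rose by 0.99 log2.

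Of 20 further membrane and sorting genes tested, 12 rose and 3 fell, with a median of 0.58 log2. Slc11a1, a metal transporter of phagosomes, rose by 2.11 ± 0.27 log2, Cd68, a macrophage glycoprotein, by 1.98 ± 0.13, and Gnptab, the enzyme that adds the mannose 6-phosphate sorting tag, by 1.18 ± 0.18. Sort1, a sorting receptor, read 9.36, 9.42 and 9.36 log2 in labelled-null joints and 9.40, 9.42 and 9.37 in hTNF joints, against 10.43 and 10.48 in wild-type joints. It fell by 1.06 on the log2 scale (standard error 0.09, adjusted p = 7.42e-05), with transgenic arrays nearly alike.

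Of 7 further pump genes tested, 3 rose and 1 fell, with a median of 0.11 log2. The gene that fell was Atp6v0e2, a paralog of Atp6v0e, at 7.82, 7.13 and 7.40 log2 in labelled-null joints and 8.06, 8.01 and 7.77 in hTNF joints, against 9.82 and 9.45 in wild-type joints. Its transgenic arrays were all more than a log2 unit under wild type, and it fell by 1.69 on the log2 scale (standard error 0.21, adjusted p = 0.000352). Muscle, adipocyte and cartilage markers fell between the same groups, and their part in this difference was not tested. Atp6ap2, the renin receptor that helps assemble the pump, rose by 0.81 ± 0.09 log2, Atp6v1f by 0.43 and Atp6ap1 by 0.33.

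Between the transgenic groups no member passed the test. In labelled-null against hTNF joints, 0 of 37 genes were called in either direction (limma, Benjamini-Hochberg, lowest adjusted p = 0.605), and 0.0162% of all tested genes were called higher and 0% lower. At an unadjusted p under 0.05 there were 2 members, Ctsc and Lamp1, beside 6.27% of all tested genes. Without the 3 arrays that gave both Xist and Y-linked signal, 0 members were called as well. The differences of the members ran from -0.09 to 0.41 log2, folds of 0.942 to 1.33, with a median of 0.08. Their 95% intervals extended 0.12 to 0.53 log2 to each side and reached from -0.55 to 0.83 at the outermost, so differences inside such bounds could not be resolved with 3 arrays against 3. The sign was positive for 28 members, negative for 8 and 0.00 for Clcn7, and positive for 43.5% of all tested genes. All labelled-null arrays were above all hTNF arrays for 5 of 37 members, against 5.1% of all tested genes, and below them for none, against 4.91%.

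**Figure D5:**
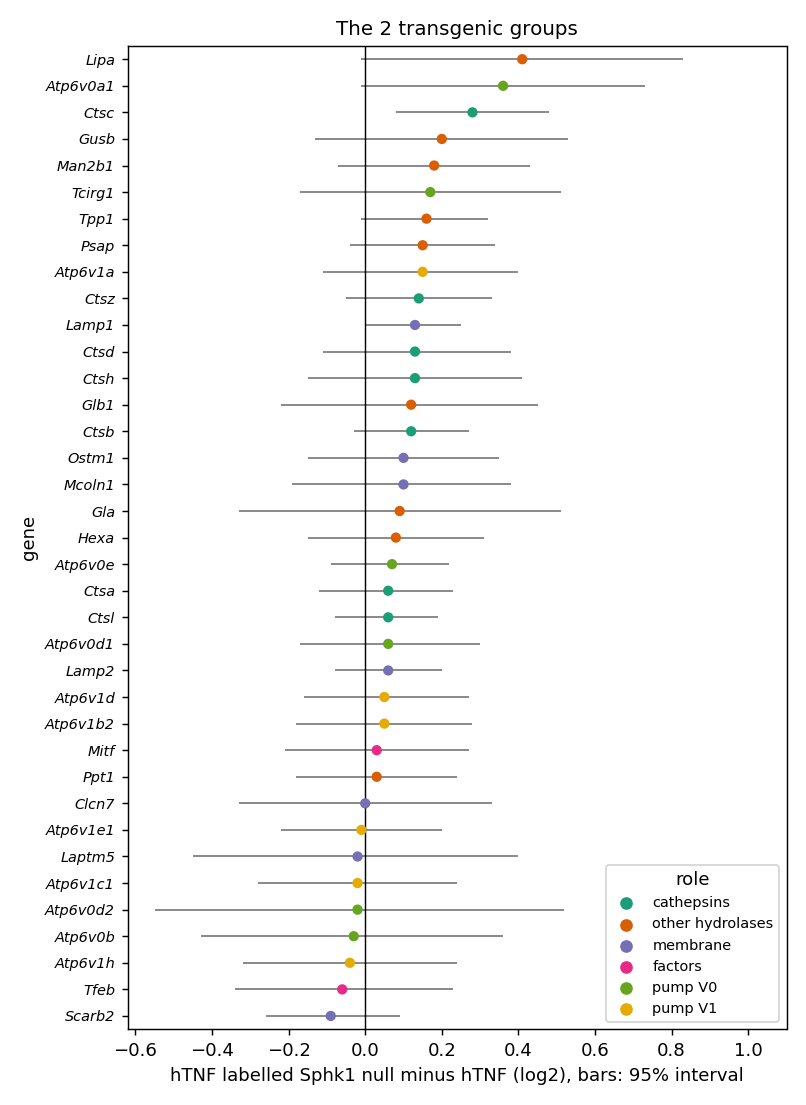
Difference between labelled-null and hTNF joints in log2 units (horizontal axis, points coloured by role, bars: 95% interval) for the 37 genes in order of size. Most points lie right of 0 by 0.2 log2 or less, most intervals cross 0, and Lipa, Atp6v0a1 and Ctsc have the largest values.

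The 5 members with the smallest unadjusted p were Ctsc, Lamp1, Atp6v0a1, Lipa and Tpp1. Ctsc, whose values stand above, differed by 0.28 ± 0.09 log2 (95% interval 0.08 to 0.48, unadjusted p = 0.0107, adjusted p = 0.605). Lamp1 differed by 0.13 ± 0.05 log2 (unadjusted p = 0.0454, adjusted p = 0.654) and Atp6v0a1 by 0.36 ± 0.16 (unadjusted p = 0.0533, adjusted p = 0.663). In all of these genes each labelled-null array was above each hTNF array. Lipa differed by 0.41 ± 0.19 log2 (unadjusted p = 0.0564, adjusted p = 0.664), with hTNF replicate 3 at 11.39, above labelled-null replicate 2 at 11.35. A second Lipa probe set read 10.60, 11.10 and 10.85 log2 in labelled-null joints, against 9.20, 9.97 and 10.32 in hTNF joints, a difference of 1.02 log2 with no overlap (adjusted p = 0.54), and another differed by 0.64 log2 (adjusted p = 0.612). Tpp1 read 11.77, 11.84 and 11.79 log2 in labelled-null joints, against 11.61, 11.64 and 11.68 in hTNF joints. The groups did not overlap, and Tpp1 differed by 0.16 ± 0.07 log2 (unadjusted p = 0.0636, adjusted p = 0.67). Its second probe set differed by 0.01 log2 (adjusted p = 0.992), with overlap. The fifth gene without overlap was Ctsb, at 0.12 ± 0.07 log2 (adjusted p = 0.686).

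Macrophage markers had a median of 0.21 log2 between the same groups, from -0.50 to 0.52, with 7 of 11 positive and none called. Cd14, a lipopolysaccharide co-receptor of macrophages, was the highest of them, at 0.52 ± 0.14 (unadjusted p = 0.00451, adjusted p = 0.558). Skeletal muscle markers had a median of -0.37 log2, from -0.61 to 1.41, with 1 of 10 positive. At an unadjusted p under 0.05 (limma) there were 8 of 10, beside 6.27% of all tested genes. Medians of other lists were -0.45 log2 for adipocyte markers (2 of 6 at such a p), -0.26 for skin markers and 1.0 for the 3 tested erythroid markers. None of the markers of these lists was called. All 16 hydrolases had a positive sign, with a median of 0.13 log2, and 7 of 12 pump subunits did, with a median of 0.05. The part of any of these marker lists in the member differences was not tested. The member medians moved with single arrays: without hTNF replicate 1 the hydrolases had a median of 0.06 (13 positive) and the whole list 0.03 (23 positive), and without labelled-null replicate 1 they had 0.08 (13 positive) and 0.04 (22 positive). The dim second probe set of Mitf, which did not pass the filter, read 6.05, 6.23 and 6.18 log2 in labelled-null joints, against 6.61, 6.74 and 6.71 in hTNF joints. It lay lower in all labelled-null arrays (difference -0.53 log2, adjusted p = 0.59 with the filter left out), while the brighter Mitf probe set differed by 0.03.

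Other probe sets of the members mostly went the same way in the comparisons with wild type. Beside the 37 brightest, 43 further probe sets of 27 genes were tested, and 37 of them had the sign of the brightest in hTNF against wild-type joints, 28 rose and 0 fell. The 6 with the opposite sign were single probe sets of Atp6v0a1, Atp6v1d, Atp6v1e1, Ctsl, Laptm5 and Scarb2, between -0.20 and 0.07 log2, and none of these was called. In labelled-null against wild-type joints, 60 of the 80 tested probe sets rose and 1, that of Tfeb, fell. Between the transgenic groups, 28 of the 43 further probe sets had the sign of the brightest and 0 were called, so the sign counts there depend on the probe set chosen.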

How the data were processed

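RNA of 8 mouse ankle joints was measured on single-colour Affymetrix arrays. The deposited table holds log2 values of 45101 probe sets, as the authors made them. The submitters' processing notes name RMA, MAS5 and Affymetrix Expression Console, without saying which made the deposited values. Changes at the dim and bright ends of such summaries are compressed, a fold is one of summarised brightness, and levels were never compared between probe sets.

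Of all probe sets, 34945 were annotated to 1 gene, 932 to several, 9160 to none and 64 were controls, and 34741 matched the GRCm38.p6 gene table. Control probe sets were left out, and probe sets above the table median of 6.87 log2 on at least 2 of 8 arrays were kept (24115). Using limma 3.58.1 under R 4.3.3, group means were estimated from the 8 arrays together, with an intensity trend and 5 residual degrees of freedom. The Benjamini-Hochberg method was applied over all kept probe sets of a comparison, called at an adjusted p under 0.05. The scripts were tested on simulated data. The number of arrays limits the precision: the median standard error of a difference was 0.15 log2 for hTNF minus wild type and 0.13 for labelled null minus hTNF.

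Members and lists were chosen with earlier results of these data known. Every member could be named, and values on every array were given for the 3 largest called changes of each role in hTNF against wild type, the 5 smallest unadjusted p-values between the transgenic groups, Tfeb, Mitf, the paralog pairs of the d and a subunits, and Sphk1. Up to 4 of the largest called changes were named from each further lysosomal list, and other values per array were added after they were seen. Alternatives changed the dim filter, quantile normalization, the trend, the groups fitted, an offset before log2, the probe set rule, a skin covariate, a replicate block and single arrays left out. Leaving out the 3 arrays where Xist and Eif2s3y both gave signal was chosen after seeing the data.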

Additional observations from a re-analysis of the deposited data

How the results depend on the processing

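No direction of a member that was called turned under any alternative listed here, and 20 of the 28 members called in hTNF against wild-type joints were called under all of them, as were 25 of the 32 called in labelled-null against wild-type joints. The members that lost a call in some setting were Atp6v0b, Atp6v0d1, Atp6v1h, Clcn7, Ctsl, Glb1, Ostm1 and Tpp1 in the first comparison and Atp6v0a1, Atp6v0b, Atp6v1h, Clcn7, Ctsd, Ctsl and Tfeb in the second. Leaving out single arrays gave 21 to 29 members higher and 0 to 1 lower in hTNF against wild-type joints, with the fewest without wild-type replicate 1, and 27 to 31 higher and 0 to 1 lower in labelled-null against wild-type joints. Over all probe sets it gave 4695 to 9313 calls in the first comparison, against 7965 with all arrays, 6314 to 10482 in the second, against 9395, and 0 to 3 between the transgenic groups, against 2. Between the transgenic groups a stricter filter gave 1 probe set called, quantile normalization 6, and leaving out the 3 arrays where Xist and Eif2s3y both gave signal 0, while 0 members were called in each of these. The 1 member called lower in hTNF against wild-type joints under quantile normalization was Tfeb (-0.40 log2, adjusted p = 0.0463). Without those arrays, which leaves 1 wild-type array, the Tfeb difference was -0.56 log2. With only the compared groups in the fit, 0 members were lower in labelled-null against wild-type joints. A replicate block gave 26 and 29 members higher and 0 lower in the comparisons with wild type, and 6515, 2 and 7770 probe sets called. Whether the numbers pair the samples cannot be told from so few arrays. Same-numbered labelled-null and hTNF arrays had correlations of 0.228, 0.054 and 0.251 in their deviations from group means. Those with different numbers ran from -0.485 to 0.37, the highest between labelled-null replicate 2 and hTNF replicate 3. The cause of the changes between settings was not tested. With 2 wild-type arrays, 1 array sets much of each difference from wild type, and a lone array left in a group was assumed to vary like the other groups.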
